A study of Mus musculus with 5 samples.

Results

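Antioxidant defence in the exocrine pancreas was examined through 45 genes chosen by symbol for their known function: NRF2 and its regulators, NRF2 target enzymes, the glutathione system, thioredoxins and peroxiredoxins, dismutases with catalase, and ferritin. All 45 were among the 23284 gene symbols counted in each library. RNA came from primary acinar cells, which make and secrete the digestive enzymes of the pancreas, of C57BL/6 mice aged 8 weeks. Controls were p48-Cre mice (2 libraries) and knockouts were Arid1afl/fl;p48-Cre mice (3 libraries), so both groups carried the Cre recombinase that the p48 (Ptf1a) locus drives in pancreatic cells. Arid1a encodes a subunit of the SWI/SNF chromatin remodelling complex. The labels do not tie the libraries to separate animals, so p-values measure the spread between libraries, which may be technical. The comparison asks whether acinar transcripts of the antioxidant system differ when Arid1a is deleted.

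NRF2, the product of Nfe2l2, is a transcription factor that KEAP1 holds at a low level until electrophiles or oxidants release it. It then pairs with small MAF proteins at antioxidant response elements and induces genes for glutathione synthesis, quinone reduction, NADPH supply and thioredoxin reduction. Acinar cells form many disulfide bonds while folding digestive enzymes, a process that yields peroxide, and oxidative stress is a known feature of pancreatitis.

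The core letters of the antioxidant response element, TGACNNNGC, were searched on both strands of RefSeq promoters (build GRCm38.p6, 250 bases before to 50 bases after each start). Of the 45 genes 39 had an entry, and Hmox1, Gclc, Gsr, Gsta4, Prdx6 and Sod3 did not. The letters occurred in 10 of these 39 (25.6%): Nfe2l2, Ugdh, G6pdx, Me1, Gclm, Gsta3, Txnrd1, Srxn1, Prdx1 and Sod1. Over all 27025 genes of the promoter table the share was 14.0%. The 6 stretches shown come from genes of 4 functional classes described in the following paragraphs, and capitals mark the match, read 5′ to 3′ on the strand of the gene. Ugdh lies on the minus strand (chr5:65435940-65436000), as does G6pdx (chrX:74428903-74428963). Gsta3 (chr1:21240438-21240498), Prdx1 (chr4:116685440-116685500), Txnrd1 (chr10:82859088-82859148) and Gclm (chr3:122245397-122245457) lie on the plus strand.
Ugdh: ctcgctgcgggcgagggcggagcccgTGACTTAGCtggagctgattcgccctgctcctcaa
G6pdx: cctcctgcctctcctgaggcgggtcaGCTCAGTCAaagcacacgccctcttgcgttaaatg
Txnrd1: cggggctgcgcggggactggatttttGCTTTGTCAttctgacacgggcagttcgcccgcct
Gclm: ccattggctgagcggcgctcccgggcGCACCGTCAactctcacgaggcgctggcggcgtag
Prdx1: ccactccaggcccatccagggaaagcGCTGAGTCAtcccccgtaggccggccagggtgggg
Gsta3: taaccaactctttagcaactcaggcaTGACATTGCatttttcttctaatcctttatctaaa
In Ugdh and Gsta3 the match shown reads as TGACNNNGC along the gene, and in the other 4 it is the reverse complement. Ugdh holds a further match, GCGTGGTCA, the reverse complement, 94 bases before the start against 132 for the one shown. A match describes letters and does not show that NRF2 binds there.

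Depth limits every statement on the controls. The rows of Rn45s, the ribosomal RNA precursor, and of Lars2, a mitochondrial leucyl-tRNA synthetase, were set aside. Rn45s alone took 72.6% and 82.2% of the counts in the controls and 6.78% to 10.9% in the knockouts. What remained was 67514 and 72006 control counts against 3155357 to 3568906 in knockout libraries. Levels are given as CPM, counts per 1000000 counts of this remainder. A single count equalled 14.8 and 13.9 CPM in the controls and 0.28 to 0.317 CPM in the knockouts, so depth, Rn45s share and genotype cannot be told apart. Arid1a had 0 and 41.7 CPM in control libraries, from 0 and 3 counts, against 13.9, 33.9 and 12.6 CPM in knockout libraries, with overlap (ratio of pooled CPM 0.956, 95% interval for counting error 0.323 to 4.67). Its count covers the whole gene and does not check the deletion. Acinar markers made up 466000 and 533000 CPM in control libraries against 459000 to 516000 CPM in knockout libraries. Of these, Amy2a5 was at 0 in all 5 libraries.

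The 45 antioxidant genes held 151 and 52 counts in control 1 and control 2, and 7806, 14428 and 4048 counts in knockouts 1, 2 and 3. As a summed level this was 2240 and 722 CPM in control libraries against 2470, 4040 and 1210 CPM in knockout libraries. The groups overlapped: knockout 3 lay between the controls, and the controls differed from each other about as widely as the knockouts did. No count was seen in either control for 18 of the 45 genes, and 10 had a count in both. In the knockouts 41 were counted in every library. At the pooled knockout share, 23 of the 45 would give fewer than 3 counts in both controls together, so a higher level in the knockouts was not detectable for those genes at this depth.

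In edgeR's quasi-likelihood test 38 of the 45 genes passed the low-count filter and none was called in either direction at an adjusted p under 0.05. Over all 8291 tested genes 1.8% were called, 16 higher (0.193%) and 133 lower (1.6%). Ugdh and Gstm2 had an unadjusted p under 0.05, 2 of 38 (5.26%) against 12.9% of all tested genes. DESeq2 called 8 of the 38 higher (Gstm1, Gstm2, Gpx2, Txn1, Prdx1, Prdx4, Sod1 and Fth1) and 1 lower (Ugdh), and limma-voom called none. With DESeq2 the median of all genes moved up by 1.2 on the log2 scale. With RLE factors in edgeR it moved up by 1.26, and no member was called. The reason for this difference in calls was not tested. In the DESeq2 fit all genes together had 753 calls higher and 310 lower.

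**Figure D1:**
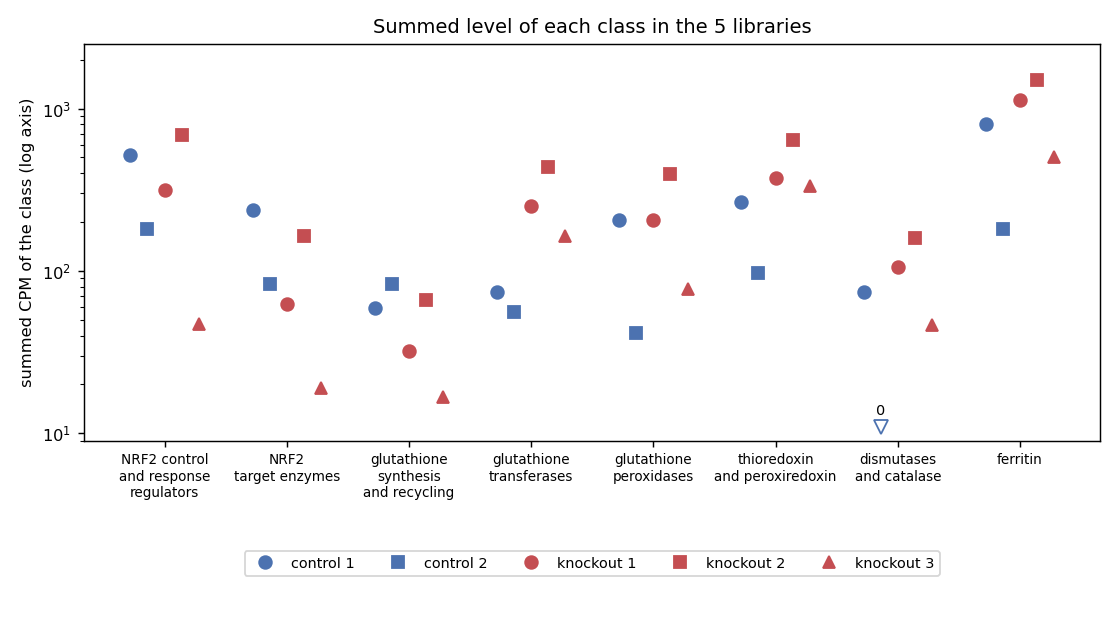
Summed CPM of each class on a log axis, 1 point per library (blue, control; red, knockout; the open triangle marks a sum of 0). In the glutathione transferases all 3 knockouts lie above both controls, at 164 CPM or more against 74.1 CPM or less, and in the other classes except thioredoxin and peroxiredoxin the groups overlap.

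Without a count in the controls a fold is only a bound, set here at 3 counts in both controls together, or 21.5 CPM. Elsewhere the ratio of pooled CPM is given with its exact 95% interval, which covers counting error only. The spread between the controls was wider than counting error. Of the 167 tested genes with 20 to 30 control counts in all, 39 (23.4%) had at most 1 of them in one of the controls, and Ftl1 and Sqstm1 were among these. By these intervals 8 of the 38 tested genes lay above a ratio of 1 (21.1%, against 6.96% of all tested genes) and 2 lay below it (5.26%, against 21.8%). Whether an interval can exclude 1 depends on how many counts a gene has. Gsta3 and Gstm2 among the 8 had no control count and passed the filter through the knockouts alone. The contrast is therefore no result about the antioxidant genes.

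**Figure D2:**
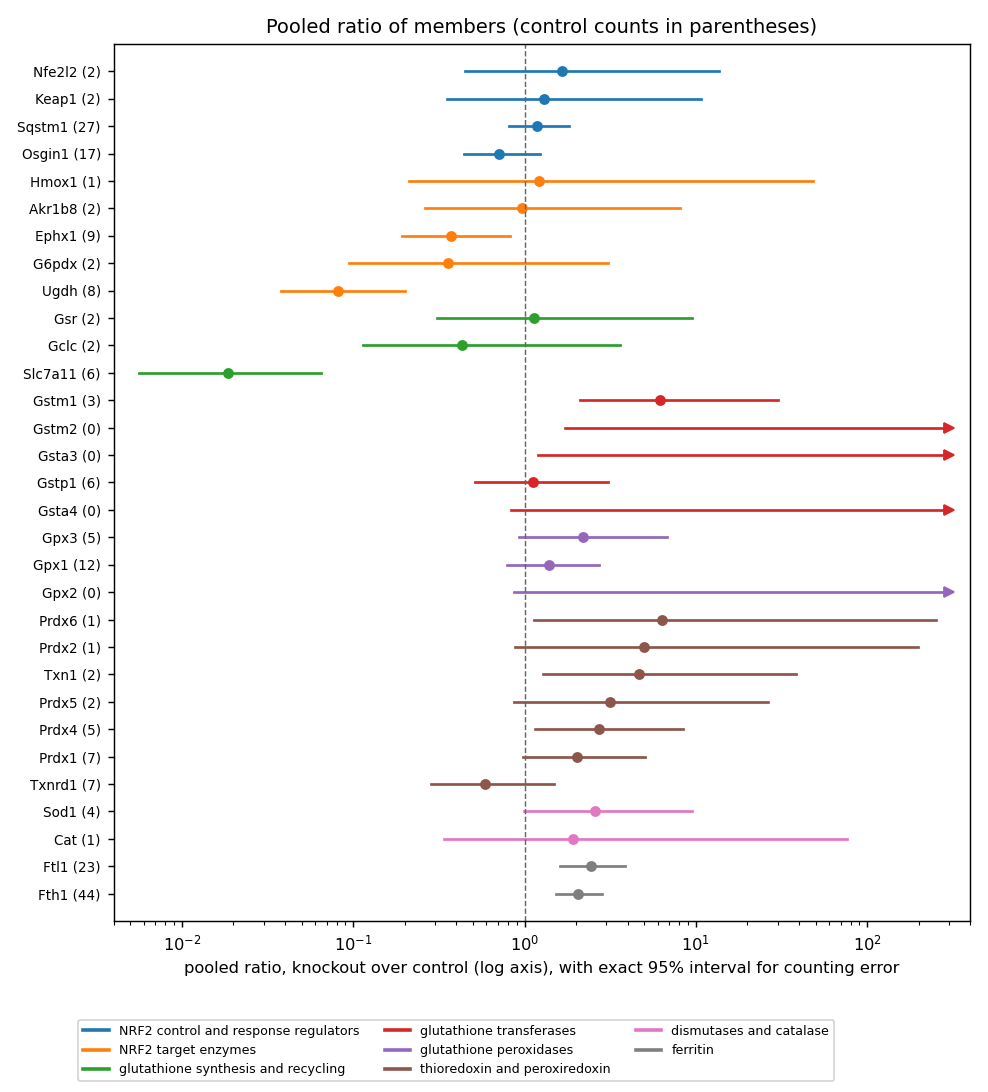
Ratio of pooled CPM, knockout over control, on a log axis, for the 31 genes with a control count or with at least 3 control counts expected at the knockout share. Bars are exact 95% intervals for counting error, arrows mark genes without a control count, and the dashed line is a ratio of 1. Ferritin and several transferases and peroxiredoxins lie to the right of it, and Ugdh, Ephx1 and Slc7a11 to the left.

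The switch itself was barely counted. Nfe2l2 stood at 29.6 and 0 CPM in the controls, from 2 counts and 0, and at 16.2, 51 and 1.49 CPM in the knockouts. Keap1, which targets NRF2 for degradation, had 29.6 and 0 CPM against 17.1, 26.9 and 11.1 CPM. Both genes overlapped between the groups, with pooled ratios of 1.65 (interval 0.451 to 13.7) and 1.3 (0.354 to 10.8). Knockout 3 was lowest in each.

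Sqstm1 encodes p62, an autophagy receptor that binds KEAP1 and is itself an NRF2 target. It had 385 and 13.9 CPM in control libraries, from 26 counts and 1, against 227, 425 and 24.5 CPM in knockout libraries. Each group thus held a library with a high level and one with a low level, and the fitted log2 fold change was 0.18 ± 1.07 (SE; adjusted p = 0.936, edgeR). Osgin1, an oxidative stress-induced growth inhibitor, had 74.1 and 167 CPM in control libraries against 56.1, 186 and 9.87 CPM in knockout libraries. Its pooled ratio was 0.712 (interval 0.442 to 1.23), with knockout 3 lowest and knockout 2 highest of the 5 libraries.

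The NRF2 target enzymes, with glutathione synthesis, had a lower summed level in the knockouts on average, with no test. This direction depends on few genes, Ugdh and Ephx1 among the target enzymes and Slc7a11 in glutathione synthesis. Without these genes the mean sum of each class was higher in the knockouts. For the target enzymes the sum was 237 and 83.3 CPM in control libraries against 62.4, 164 and 19.1 CPM in knockout libraries, a log2 ratio of means of -0.97 (-0.028 without control 1), with overlap between the groups and a log2 ratio of 1.16 when Rn45s and Lars2 stay in the total. Ugdh, UDP-glucose dehydrogenase, which makes the sugar donor for glucuronidation, had 74.1 and 41.7 CPM in control libraries, from 5 counts and 3, against 3.49, 9.53 and 0.598 CPM in knockout libraries. All 3 knockouts lay below both controls, the only such case among the 38 tested genes (2.63%, against 11.2% of all tested genes). The pooled ratio of Ugdh was 0.0814 (interval 0.0381 to 0.199), and the fitted log2 fold change of -3.65 ± 1.45 (SE) did not pass (adjusted p = 0.19, edgeR).

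Ephx1, microsomal epoxide hydrolase, had 118 and 13.9 CPM in control libraries against 12.7, 53.8 and 2.99 CPM in knockout libraries. Control 1 alone was high and control 2 lay within the knockout range, so the pooled ratio of 0.373 (interval 0.193 to 0.825) rests on the 8 counts of control 1. Without control 1 the ratio was 1.73 (interval 0.308 to 68.6), and with Rn45s and Lars2 in the total the fitted log2 fold change turned from -1.5 to 0.601. G6pdx, the NADPH-producing first enzyme of the pentose phosphate pathway, had 29.6 and 0 CPM against 2.22, 8.69 and 4.19 CPM (ratio 0.36, interval 0.0948 to 3.05). Hmox1, haem oxygenase, had 14.8 and 0 CPM, a single control count, against 11.1, 10.9 and 3.89 CPM. The classic NRF2 reporter gene Nqo1, a quinone reductase, was almost uncounted, with 0 in both controls and 2, 3 and 2 counts in the knockouts. Cbr1, a carbonyl reductase, and Me1, cytosolic malic enzyme, had no control count and knockout means of 15.4 ± 12 and 10.7 ± 12.1 CPM (SD, n = 3). Akr1b8, an aldo-keto reductase, had 0 and 27.8 CPM against 13.3, 26.9 and 0.299 CPM, a 90-fold range within the knockouts.

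Glutathione synthesis and recycling gave little signal either way. The 5 genes summed to 59.2 and 83.3 CPM in control libraries, from 4 and 6 counts, against 32.3, 66.1 and 16.7 CPM in knockout libraries, a log2 ratio of means of -0.89 with overlap, and of 1.53 with Rn45s and Lars2 in the total. Gclc and Gclm, the catalytic and modifier subunits of the rate-limiting ligase, had 2 and 0 control counts pooled, and knockout means of 6.03 ± 5.73 and 2.23 ± 2.11 CPM (SD, n = 3). Gss, glutathione synthetase, had 7.61, 23.3 and 8.97 CPM in knockout libraries without a control count, and Gsr, glutathione reductase, had 29.6 and 0 CPM against 15.5, 25.5 and 7.17 CPM. For Gclc and Gsr the pooled intervals included 1. Slc7a11, the cystine importer subunit, had 0 and 6 control counts against 4, 4 and 0 knockout counts, that is 83.3 CPM in control 2 against at most 1.27 CPM. Its pooled ratio of 0.0185 (interval 0.00562 to 0.0646) rests on control 2 alone. These 6 counts were all that the class had in control 2, and without Slc7a11 the mean class sum was higher in the knockouts. Slc7a11 did not pass the low-count filter and so was not tested in the main setting. It was called lower without a filter (adjusted p = 0.0214, edgeR) and with a filter of 1 CPM in 2 libraries (adjusted p = 0.0264, edgeR).

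The glutathione transferases, which conjugate glutathione to electrophiles, were 1 of the 2 classes without overlap between the groups. They summed to 74.1 and 55.6 CPM in control libraries against 250, 437 and 164 CPM in knockout libraries, a log2 ratio of means of 2.13 and a pooled ratio of 4.47 (interval 2.35 to 9.78). The control sums rest on 5 and 4 counts. Gstm1, a mu-class transferase, had 44.4 and 0 CPM in control libraries, from 3 counts and 0, against 122, 186 and 88.8 CPM in knockout libraries. Every knockout was above both controls, at a pooled ratio of 6.21 (interval 2.12 to 30.2) and a fitted log2 fold change of 2.59 ± 1.48 (SE; adjusted p = 0.46, edgeR). Without control 2 the ratio of Gstm1 was 3.01 (interval 1.03 to 14.6). About 23.1% of the 50-base words of Gstm1 occur in other genes, most of them in Gstm2-ps1 and Gstm3, so its count is uncertain.

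Gstm2, of the same class, had no control count with 54.5, 51.3 and 32.3 CPM in knockout libraries. The pooled value was 2.14 times the bound at 3 control counts, and the lower interval limit of the ratio was 1.73. Without control 1 or control 2 the pooled value was 1.1 or 1.03 times the bound. The lower limits were then 0.894 and 0.838, so both intervals included 1. The knockout libraries differed by 1.69-fold for Gstm2, against 48.9-fold for Gsta3. Gsta3, an alpha-class transferase, had no control count and 18.1, 73.1 and 1.49 CPM. Its pooled value was 1.49 times the bound, with a lower interval limit of 1.21. Knockouts 1 and 3 were below 21.5 CPM, and the pooled value of Gsta3 was under the bound without knockout 2 (0.444 times it), control 1 (0.77 times) or control 2 (0.722 times). Gsta4, which clears hydroxynonenal, had 13, 49.9 and 1.2 CPM without a control count. Gstp1, the pi-class transferase, had 29.6 and 55.6 CPM in control libraries against 39.3, 70.3 and 33.2 CPM, so the groups overlapped (ratio 1.12, interval 0.512 to 3.07). Gstp1 shares 62.3% of its 50-base words with Gstp2, which had 1, 1 and 0 counts, so reads could have been split or lost between the copies. Gsta1 and Gsta2 had at most 3 counts in any library, and 89.7% and 64.2% of their words occur in other genes.

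Glutathione peroxidases reduce peroxides at the expense of glutathione. Gpx1, the main cytosolic form, had 178 and 0 CPM in control libraries, from 12 counts and 0, against 91.3, 197 and 64.6 CPM in knockout libraries. Control 1 lay near the top of the knockout range and control 2 below it, with a pooled ratio of 1.39 (interval 0.796 to 2.71). Gpx3, the secreted form, had 29.6 and 41.7 CPM in control libraries against 78.3, 149 and 2.99 CPM in knockout libraries, a 49.8-fold range within the knockouts. Knockout 3 was below both controls and the other knockouts above both. Gpx2, the gastrointestinal form, had no control count and 27.6, 35.6 and 5.68 CPM, and 18.9% of its 50-base words occur in Gpx2-ps1. Gpx4, the phospholipid hydroperoxidase that protects from ferroptosis, had no control count and only 7.92, 14.6 and 3.89 CPM. Its count is uncertain, since 61.7% of its words also occur in Gpx4-ps2.

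Thioredoxins and peroxiredoxins formed the other class without overlap between the groups. The sums were 267 and 97.2 CPM in control libraries against 375, 644 and 333 CPM in knockout libraries, a pooled ratio of 2.55 (interval 1.72 to 3.94). The lack of overlap rests on Prdx4, which gave 176 CPM of the sum in knockout 3 and 59.2 CPM in control 1. Without Prdx4 the sum of knockout 3 lay below that of control 1. Txn1, thioredoxin, had 0 and 27.8 CPM in control libraries, from 2 counts, against 73.8, 90.2 and 33.8 CPM in knockout libraries. The knockouts were above both controls at a pooled ratio of 4.63 (interval 1.28 to 38.3), which became 2.39 (interval 0.659 to 19.8) without control 1. Txnrd1, which reduces thioredoxin, had a lower mean in the knockouts, 74.1 and 27.8 CPM against 21.9, 62.2 and 2.39 CPM, a ratio of 0.592 (interval 0.284 to 1.48) whose fitted counterpart turned from -0.81 to 0.49 with TMM on all rows. Srxn1, sulfiredoxin, which restores overoxidised peroxiredoxins, had no control count and 13.9, 40.1 and 5.38 CPM.

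Prdx1, an abundant cytosolic peroxiredoxin, had 88.9 and 13.9 CPM in control libraries against 95.4, 157 and 47.2 CPM in knockout libraries. Knockout 3 lay between the controls, and the pooled ratio was 2.02 (interval 0.977 to 5.04). Prdx4, the peroxiredoxin of the endoplasmic reticulum that uses peroxide to form disulfide bonds, had 59.2 and 13.9 CPM in control libraries against 50.4, 64.4 and 176 CPM in knockout libraries. Knockout 3 stood out: it had the highest Prdx4 of the 5 libraries, and 3.72 counts of Prdx4 per count of Prdx1, against 0.528 and 0.409 in the other knockouts and 0.667 and 1 in the controls. The control values rest on 4 counts over 6 and on 1 count over 1. The pooled ratio of Prdx4 was 2.71 (interval 1.16 to 8.36), with a fitted log2 fold change of 1.42 ± 1.4 (SE; adjusted p = 0.602, edgeR). Without knockout 3 the ratio was 1.61 (interval 0.686 to 5), and without control 2 it was 1.64 (interval 0.638 to 6.02).

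Prdx2 and Prdx6 each had a single control count, at 14.8 and 0 CPM for Prdx2 and 0 and 13.9 CPM for Prdx6. The knockouts had 25.7, 51.8 and 27.5 CPM of Prdx2 and 37.7, 82.1 and 14.1 CPM of Prdx6. Every knockout lay above both controls, for Prdx6 in knockout 3 only barely. The intervals of their pooled ratios were 0.885 to 196 and 1.14 to 252, so the size of these ratios is unknown at this depth. For Prdx6 the interval included 1 without control 1, control 2 or knockout 2. The mitochondrial Prdx3 was at 0 in both controls and had a knockout mean of 14.8 ± 6.61 CPM (SD, n = 3). Prdx5 had 29.6 and 0 CPM against 41.2, 74.5 and 18.5 CPM, with overlap.

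Dismutases turn superoxide into peroxide, and catalase removes it. As a class they had 5 counts in control 1 and 0 in control 2, or 74.1 and 0 CPM, against 105, 159 and 46.6 CPM in the knockouts. Sod1, the copper-zinc enzyme of the cytosol, gave 4 of these 5 counts, with 59.2 and 0 CPM in control libraries against 77, 109 and 33.2 CPM in knockout libraries. Knockout 3 was below control 1, and the lower limit of the Sod1 interval just missed 1. About 23.1% of the 50-base words of Sod1 occur in Gm8566, so its count is uncertain. Sod2, the mitochondrial enzyme, had no control count and 16.5, 23.3 and 5.08 CPM, and Sod3, the extracellular enzyme, had 3, 15 and 5 counts. Cat had a single control count and 10.5, 23.3 and 6.88 CPM.

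Ferritin, the iron store that keeps free iron from generating radicals, was the best counted class and held 40.2% of all knockout counts of the 45 genes. Fth1, the ferroxidase heavy chain, had 459 and 181 CPM in control libraries, from 31 and 13 counts, against 681, 984 and 255 CPM in knockout libraries. Knockout 3 lay between the controls, and the other knockouts lay above both. The means were 320 ± 197 CPM (SD, n = 2) and 640 ± 366 CPM (SD, n = 3), the pooled ratio was 2.05 (interval 1.53 to 2.83), and the fitted log2 fold change was 1 ± 0.969 (SE; adjusted p = 0.597, edgeR). Ftl1, the light chain, had 341 and 0 CPM in control libraries, from 23 counts and 0, against 447, 502 and 251 CPM in knockout libraries. Control 1 lay within the knockout range, and the pooled ratio of 2.43 (interval 1.62 to 3.84) was 1.18 (interval 0.784 to 1.86) without control 2. For Fth1 the ratio without control 2 was 1.41 (interval 0.992 to 2.08). Fth1 and Ftl1 stood in a ratio of 1.35 in control 1 and of 1.53, 1.96 and 1.02 in the knockouts. Of the 50-base words of Ftl1, 78.9% occur in other genes, mainly Ftl1-ps1, so its count is uncertain.

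Across the 38 tested genes, 16 were higher in every knockout than in either control (42.1%, against 35.6% of all tested genes). Of these 16, 12 had no control count and passed the filter through the knockouts alone, so their lack of overlap follows from the choice of genes. The median fitted log2 fold change was 1.28 for the 38 genes and 0.22 for all tested genes. With genes lacking a control count placed at their bound, the medians of the log2 pooled ratio were 0.22 and -1.11. Among the 26 with a control count 19 had a fitted value above 0, whereas 1575 of 5516 such genes did so over the whole table. These shares depend on abundance, since 1 count is 7.17 CPM over both controls. A counted gene with a pooled knockout level under 7.17 CPM must have a pooled ratio under 1. The contrast is therefore no result about the antioxidant genes. Without control 2 the median of the members was 0.97 against 5.57 for all genes, and without a low-count filter it was 1.41 against 2.05, so the order of the medians turned in both cases.

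**Figure D3:**
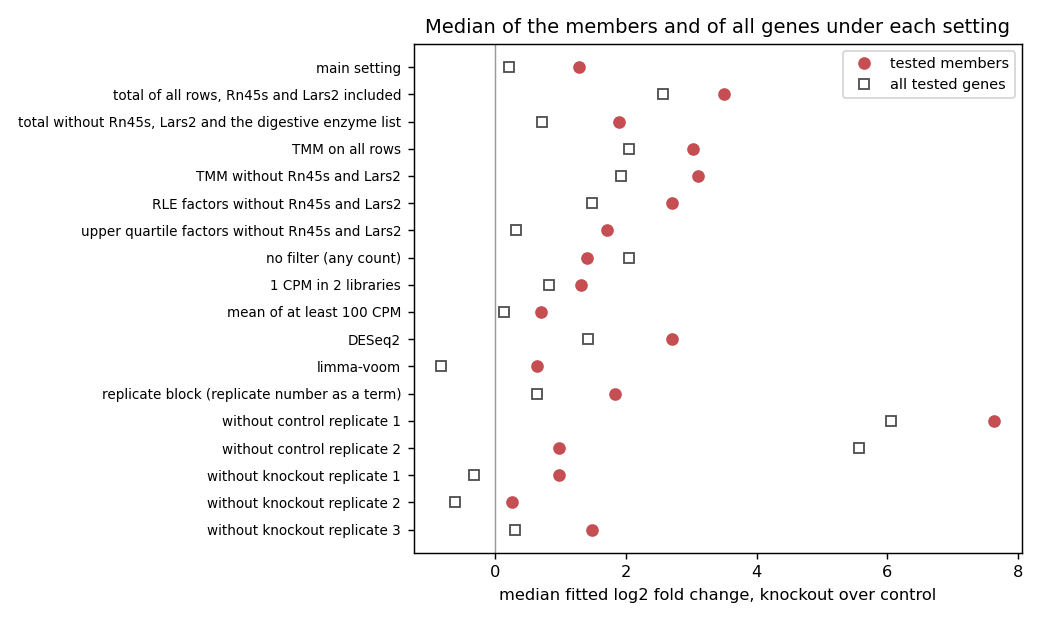
Median fitted log2 fold change, knockout over control, of the tested members (filled circles) and of all tested genes (open squares) under the main setting and each alternative. The members lie to the right of all genes except without a filter and without control replicate 2, and both medians move with the scaling.

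Within the knockout group the genes were ordered by their level per kb of transcript (median length of coding transcripts, GENCODE M21). Fth1 led with 1080 ± 617 CPM per kb (SD, n = 3) and Ftl1 followed with 543 ± 180. A group of 7 came next, Prdx1, Gpx1, Gstm1, Sqstm1, Sod1, Prdx4 and Gpx3, with means from 151 down to 92.5 CPM per kb and ranges that overlapped. At the low end Sod3, Nqo1, Gstp2, Gsta1, Slc7a11 and Gsta2 were all under 1 CPM per kb. Between neighbours in this order the ranges over the 3 libraries overlapped, except between Ftl1 and Prdx1.

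**Figure D4:**
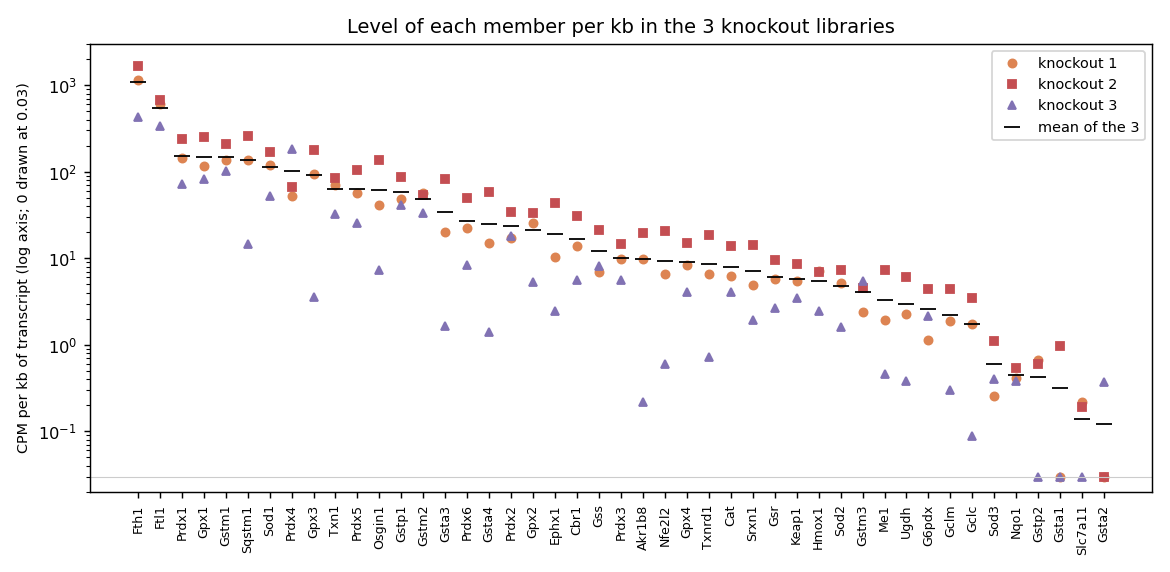
Level of each of the 45 genes in CPM per kb of transcript (log axis), 1 point per knockout library, ordered by the mean (black dash). Knockout 3 (triangles) is lowest for most genes and highest for Prdx4 and Gstm3 among those with 10 or more counts there.

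Knockout 2 had the highest CPM of the 3 knockouts in 34 of the 38 tested genes (89.5%), and knockout 3 the lowest in 33 (86.8%). The same held for 90.1% and 81.4% of all tested genes, so this order was no feature of the antioxidant genes. The share of counts on digestive enzymes and granule proteins was 79.9%, 68.6% and 88.4% in knockouts 1, 2 and 3, and 67.6% and 71% in the controls. With those enzymes left out of the total, the 45 genes summed to 12300, 12900 and 10400 CPM in knockout libraries against 6900 and 2490 CPM in control libraries. On that scale no knockout overlapped a control, and the log2 ratio of means was 1.34 in place of 0.8. The median fitted log2 fold change of all tested genes also moved up there, by 0.492. No value over all genes was set beside this lack of overlap, so it is no result about the antioxidant genes. The span within the knockouts was wide for some genes, at 49.8-fold for Gpx3, 48.9-fold for Gsta3 and 34.1-fold for Nfe2l2, and narrow for others, at 1.69-fold for Gstm2, 2-fold for Ftl1 and 2.09-fold for Gstm1.

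Other genes of the same pathways were counted from lists of related function. Of 24 tested further glutathione genes none was called, of 21 further thioredoxin and redox repair genes none, and of 11 iron handling genes none (edgeR). Over all tested genes 1.8% were called. In these 3 lists 1, 5 and 0 genes had an unadjusted p under 0.05, against 12.9% of all tested genes. Of 28 further NRF2 pathway genes 1 was called lower and none higher, against 1.6% and 0.193% of all tested genes. This was Bach1, the repressor that competes with NRF2 at antioxidant response elements, with 88.9 and 208 CPM in control libraries against 5.07, 5.88 and 0.598 CPM in knockout libraries. All knockouts lay below both controls (log2 fold change -5.25 ± 1.44, SE; adjusted p = 0.0229, edgeR). The call was lost with any 1 knockout left out (adjusted p = 0.866, 0.0659 and 0.096 without knockouts 1, 2 and 3), without control 2 (0.101), with Rn45s and Lars2 in the total (0.159), with TMM on all rows (0.0581), with limma-voom (0.0602) and with the replicate block (0.962).

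Metallothioneins, cysteine-rich metal binders that oxidants also induce, had higher means in the knockouts that did not pass the test. Mt1 had 178 and 556 CPM in control libraries against 2830, 2480 and 1720 CPM in knockout libraries, above both controls in each (adjusted p = 0.0772, edgeR). Mt2 had 311 and 97.2 CPM against 639, 447 and 1290 CPM, also without overlap (adjusted p = 0.393, edgeR). Sepp1, the secreted selenium carrier, had 104 and 167 CPM against 680, 1420 and 261 CPM (adjusted p = 0.222, edgeR). Selm, a selenoprotein of the endoplasmic reticulum, lay lower in every knockout, at 27.9, 34.2 and 87 CPM against 296 and 181 CPM (adjusted p = 0.376, edgeR), and its fitted log2 fold change of -2.26 turned to 0.13 with TMM on all rows. The other abundant genes of these lists overlapped between the groups, except Ggt1, the gamma-glutamyl transferase that breaks down extracellular glutathione, with 267 and 97.2 CPM in control libraries against 334, 332 and 284 CPM in knockout libraries.

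Markers of other cell types were also summed. The 12 duct markers, led by Clu and Krt18, summed to 4040 and 1920 CPM in control libraries against 8730, 13300 and 5030 CPM in knockout libraries. Clu alone gave 2160 and 875 CPM of this in control libraries and 6190, 8080 and 4240 CPM in knockout libraries. Of the 11 tested duct markers 7 had a fitted value above 0 and 4 below. Knockout 2 was highest and knockout 3 lowest in the sum, as for 77.1% of all tested genes. The 15 macrophage and leukocyte markers present summed to 207 and 208 CPM in control libraries against 149, 509 and 130 CPM in knockout libraries. Endothelial markers summed to 0 and 97.2 CPM against 237, 292 and 66.4 CPM, with 9 of 10 at 0 in both controls. Islet markers summed to 104 and 708 CPM against 181, 987 and 220 CPM. Stellate and fibroblast markers (296 and 389 CPM against 132, 310 and 55 CPM), lymphocyte markers (311 and 125 CPM against 14.9, 70 and 22.4 CPM) and adipocyte markers (44.4 and 431 CPM against 147, 110 and 10.2 CPM) had lower mean sums in the knockouts. So had neutrophil markers, at 0 and 55.6 CPM against 19.6, 16 and 2.39 CPM, with 4 control counts in all, each of Csf3r. Single markers went both ways. Fitted values lay above and below 0 for 5 and 4 tested stellate, 2 and 4 lymphocyte and 3 and 2 adipocyte markers. Cidec gave 347 CPM of the adipocyte sum in control 2, whereas Fabp4 had no control count and 53.2, 61.1 and 4.19 CPM in knockout libraries. Of the erythroid markers Bpgm and Slc4a1 alone had counts, at 0 and 13.9 CPM against 14.6, 31.9 and 8.07 CPM summed, and Hba-a1, Hba-a2, Hbb-b1 and Hbb-b2 were at 0 in all 5 libraries. The part of these cell types in the values of the antioxidant genes was not tested, and fewer cells of a type cannot be told apart from less RNA per cell.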

How the data were processed

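The deposited files hold raw read counts per gene symbol, 1 file per library, and every row names a gene. Build mm9 appears in the submitters' processing notes, as do Cuffdiff 2.2.1.5, TopHat2 2.1.1, Cuffnorm 2.2.1.2 and HTSeq 0.9.1 without role or order. The annotation, the strand setting and the treatment of reads matching several genes were not given in the sources used here. Per the labels' protocols, poly(A) RNA libraries were made with the TruSeq v2 kit after dissociation of the pancreas and a recovery step.

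The rows Rn45s and Lars2 were left out, and totals of the rest scaled CPM and the fit. edgeR 4.0.16 (R 4.3.3, filterByExpr, glmQLFit with robust estimation, glmQLFTest, two-sided, group as the only term, no further normalization factors) tested 8291 genes with Benjamini-Hochberg adjustment. The fit was also run on simulated counts with the same dispersion for every gene, which does not cover the uneven counts between these controls. SE is the log2 fold change divided by the square root of F. Alternatives used limma 3.58.1 and DESeq2 1.42.0. Intervals are exact (Clopper-Pearson, 95%) on counts pooled within a group; the floor is 3 counts. Shared sequence is the share of 50-base words of the longest coding transcript found in any other gene (GENCODE M21). It was also 28.8% for Gstm3 and 26.5% for Me1.

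Genes, lists and tests were chosen with earlier results of these data known. Genes with at least 10 control counts or a knockout mean of 50 CPM were to be given in full, as were the 3 most abundant and any called genes of each pathway list. The further genes were named after their values were seen. Of the rule's pathway genes, those overlapping between groups are given as a group.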

Additional observations from a re-analysis of the deposited data

How the results depend on the processing

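Log2 values are fitted fold changes of knockout over control. The control libraries hold so few counts that neither the calls over all genes nor the centre of the fold changes is settled by these data. With Rn45s and Lars2 in the total, 140 genes were called higher and 17 lower, in place of 16 and 133. The median was 3.5 for the tested members and 2.57 for all tested genes. Then 27 members lay above the controls without overlap and 0 below. The median of all genes moved up, and no share over all tested genes was set beside this count, so it is no result about the members. On that scale the log2 ratios of summed CPM were 2.93 for the 45 genes, 2.14 for NRF2 regulators, 1.16 for NRF2 target enzymes, 1.53 for glutathione synthesis, 4.41 for transferases, 2.93 for peroxidases, 3.46 for thioredoxins and peroxiredoxins, 3.44 for dismutases and catalase and 3.17 for ferritin. Without the digestive enzymes in the total 26 genes were called higher, and the transferases had a log2 ratio of 2.69. TMM on all rows called 5 higher and 27 lower. TMM without Rn45s and Lars2 called 147 higher and 71 lower, with 1 member higher (Gstm2) and a median of the members of 3.1. RLE factors called 81 lower. Upper quartile factors called 354 lower, 1 of them a member (Ugdh). Without a low-count filter 898 were called lower, 1 of them a member (Slc7a11), and the median of the members was -0.64 relative to all genes. A filter of 1 CPM in 2 libraries called 388 lower, again with Slc7a11 as the 1 member, and a mean of at least 100 CPM left 17 lower. DESeq2 called 753 higher and 310 lower, with 8 members higher and 1 lower, and limma-voom called 0 higher and 43 lower. With the replicate block 4 genes were called higher and 5 lower. Same-numbered libraries deviated from their group means with correlations of -0.0112 and 0.0374, so the numbers were not taken to pair them.

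With 1 library left out, calls ran from 0 to 19 higher and from 4 to 378 lower, with 0 to 1 members higher (Ftl1, without control 1) and 0 lower. The median of the members ran from 0.26 to 7.63, and from -4.6 to 1.57 relative to all genes. Members without overlap ran from 16 to 31 above and from 1 to 8 below. No share over all tested genes was set beside these counts, so they are no result about the members. The log2 ratio of summed CPM ran from 0.204 to 1.83 for the 45 genes, -0.94 to 0.96 for NRF2 regulators, -1.97 to -0.028 for NRF2 target enzymes, -1.54 to -0.53 for glutathione synthesis, 1.68 to 2.41 for transferases, 0.13 to 2.44 for peroxidases, 0.76 to 2.21 for thioredoxins and peroxiredoxins and 0.38 to 2.53 for ferritin. For dismutases and catalase it ran from 0.49 to 1.84, and without control 1 no ratio exists because control 2 has no count. A lone control is assumed to vary like the knockouts.

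The sign of the fitted value turned for some genes, including some far from 0 in the main setting (7.46 for Me1, 6.48 for Gstm3, -2.26 for Selm). With limma-voom it became -0.52 for Nfe2l2, -0.64 for Hmox1, -0.16 for Me1, -0.16 for Gsr, -0.44 for Gstm3, -0.103 for Gstp1, -0.36 for Gpx3 and -0.038 for Cat. With Rn45s and Lars2 in the total it became 1.98 for Osgin1, 2.52 for Akr1b8, 0.601 for Ephx1, 0.69 for G6pdx, 0.94 for Gclc, 1.42 for Txnrd1 and 0.024 for Selm. With TMM on all rows and TMM without both genes it became 0.79 and 0.84 for Osgin1, 1.28 and 1.33 for Akr1b8, 0.26 and 0.31 for G6pdx, 0.16 and 0.21 for Gclc, 0.49 and 0.56 for Txnrd1, and 0.13 and 0.18 for Selm. RLE factors and DESeq2 gave 0.32 and 0.32 for Osgin1, 0.82 and 0.78 for Akr1b8, and 0.076 and 0.065 for Txnrd1. Akr1b8 also turned to 0.17 without the digestive enzymes and to 0.85 with the replicate block. With 1 library left out the values ran from -0.71 to 8.86 for Nfe2l2, -0.69 to 8.54 for Keap1, -1.87 to 0.18 for Osgin1, -0.77 to 4.02 for Sqstm1, -0.78 to 7.46 for Hmox1, -1.06 to 8.1 for Akr1b8, -3.06 to 0.74 for Ephx1, -2.54 to 6.69 for G6pdx, -2.29 to 6.95 for Gclc, -0.88 to 8.35 for Gsr, -0.24 to 0.68 for Gstp1, -0.59 to 11.2 for Gpx1, -2.06 to 0.054 for Txnrd1 and -0.13 to 8.11 for Cat. Large values arise where the remaining control has no count. The cause of the other changes was not tested.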
